A study of Arabidopsis thaliana with 12 samples.

Results

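The transcripts described here are 10 genes of the root response to low pH and aluminium in Arabidopsis thaliana. They were chosen by their locus identifiers from a named list, which was drawn up with earlier results of these data known, and the rule itself uses no measured value. They are the zinc finger transcription factors STOP1 (AT1G34370) and STOP2 (AT5G22890), the F-box protein RAE1 (AT5G01720), the organic acid exporters ALMT1 (AT1G08430) and MATE (AT1G51340), the internal transporters ALS1 (AT5G39040) and ALS3 (AT2G37330), the tonoplast dicarboxylate transporter TDT (AT5G47560) and the polygalacturonase inhibiting proteins PGIP1 (AT5G06860) and PGIP2 (AT5G06870). The count table lists 26568 genes, of which 19327 had enough counts to be tested, and all 10 genes were among the latter. The study compared roots of an NH4+-tolerant ecotype, Or-1, with those of an NH4+-sensitive ecotype, Rak-2. Both are natural accessions, and no transgene or induced mutation is given for them. Seedlings of each ecotype spent 5 d on nitrate and then 1 d on either 1 mM (NH4)2SO4 or 1 mM Ca(NO3)2, which gave 4 groups of 3 RNA-seq libraries and 12 libraries in total. The study's methods place a nitrogen-free period between the nitrate and the treatment, which the sample labels do not mention. They describe a medium whose other nutrients were the same for the nitrogen sources, with calcium set to the same concentration. The NH4+ was given as its sulfate salt, so the supply of sulfate differed together with the nitrogen source. No aluminium treatment is given for these libraries, the medium was buffered with MES to the same pH for both nitrogen sources according to those methods, and the pH at the roots was not among the data used here.

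STOP1 is a nuclear transcription factor that accumulates as a protein when the root apoplast is acid or holds aluminium, and RAE1 marks it for degradation. Its targets include ALMT1, which releases malate, and MATE, which releases citrate, and both acids bind aluminium outside the root. ALS3 and ALS1, with the ABC protein STAR1, move aluminium within the plant and into vacuoles, PGIP1 and PGIP2 protect cell wall pectin, and TDT carries malate across the tonoplast. Root uptake of NH4+ is known to release protons, whereas uptake of NO3- consumes them.

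The sequences before the genes that rose under NH4+ in both ecotypes are given first, since these genes moved together. Each is the reference sequence of RefSeq's TAIR10.1 assembly, read 5′ to 3′ on the strand of the gene and ending at the base before its annotated transcript start. They span chr1:2658352-2658601 on the plus strand for ALMT1, chr1:19030748-19030997 on the plus strand for MATE, chr5:2132100-2132349 on the plus strand for PGIP1 and chr5:7654836-7655085 on the minus strand for STOP2. Capitals mark the letters TTGAC, the core of the W-box that WRKY factors such as the ALMT1 repressor WRKY46 bind, and CGCG, the core of the element that CAMTA factors such as the ALMT1 activator CAMTA2 bind. Both were searched on both strands. The motifs can share a base, and no matches overlapped in the windows printed.
ALMT1: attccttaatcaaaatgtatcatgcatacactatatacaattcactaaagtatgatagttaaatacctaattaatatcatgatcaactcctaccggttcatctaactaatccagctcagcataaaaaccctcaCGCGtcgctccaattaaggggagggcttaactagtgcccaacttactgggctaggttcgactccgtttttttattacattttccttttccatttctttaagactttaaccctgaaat
MATE: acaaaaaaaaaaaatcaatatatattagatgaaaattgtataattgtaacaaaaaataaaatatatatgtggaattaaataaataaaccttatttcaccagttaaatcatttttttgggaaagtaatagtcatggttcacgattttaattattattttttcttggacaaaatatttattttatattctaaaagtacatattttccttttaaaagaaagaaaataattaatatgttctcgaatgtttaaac
PGIP1: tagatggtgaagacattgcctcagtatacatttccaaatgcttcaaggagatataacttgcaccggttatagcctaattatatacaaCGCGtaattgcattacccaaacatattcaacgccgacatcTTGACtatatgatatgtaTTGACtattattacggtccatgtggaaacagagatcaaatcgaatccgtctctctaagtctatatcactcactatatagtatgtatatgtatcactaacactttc
STOP2: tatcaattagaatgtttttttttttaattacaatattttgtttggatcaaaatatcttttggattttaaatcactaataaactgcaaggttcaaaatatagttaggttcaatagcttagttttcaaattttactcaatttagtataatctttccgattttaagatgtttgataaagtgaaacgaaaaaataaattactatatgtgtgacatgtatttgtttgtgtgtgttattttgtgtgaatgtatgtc
The window before ALMT1 held 1 CGCG and no TTGAC. That of PGIP1 held 1 CGCG and 2 TTGAC, and those of MATE and STOP2 held neither. Among the other 6 genes, STOP1, ALS1 and TDT had 1 TTGAC each, and none had CGCG. Of the 27443 protein-coding genes with a window of 250 bases, 44.9% held TTGAC and 10.1% held CGCG. These letters are a description of the reference accession, and the bases of Or-1 and Rak-2 were not read.

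The libraries held between 16005610 and 22388738 counts each. Correlations between libraries of a group lay between 0.921 and 0.989, and no pair of libraries had identical counts. The biological coefficient of variation was 0.343 for Rak-2 under NO3- and between 0.158 and 0.241 in the other groups. Transcripts of the endodermis and stele of the root were present in all libraries, with CASP1 between 53.3 and 132 FPKM (counts scaled by library size and gene length), while the root hair and root cap markers EXPA7, COBL9 and SMB had at most 13.6 FPKM. Shoot transcripts were present in uneven amounts, and the sum of CAB1, CAB2 and RBCS1A, which encode proteins of photosynthesis, ranged from 108 to 530 FPKM in Or-1 under NO3-, from 1.84 to 212 in Or-1 under NH4+, from 4.97 to 271 in Rak-2 under NO3- and from 157 to 710 in Rak-2 under NH4+. None of these 3 genes was called in any comparison by edgeR's test, and at an unadjusted p under 0.05 CAB2 was higher under NH4+ in Rak-2 and differed in its response between the ecotypes. Of the 7 root markers, PHO1 of the stele fell under NH4+ in Or-1, with a log2 fold change of -1.46 (adjusted p = 0.000177 in edgeR's test), and had -0.97 (adjusted p = 0.00368) in Rak-2, under the threshold on the fold change. No other root marker was called. SHR, also of the stele, was higher under NH4+ in Or-1, with 0.31 (unadjusted p = 0.0112 in edgeR's test). EXPA7 was lower under NH4+ in Rak-2 at an unadjusted p of 0.0312. Between the ecotypes under NH4+, 2 root markers were higher in Or-1 and 1 was lower at an unadjusted p under 0.05. The RNA is from whole roots, so fewer cells of a type and less RNA per cell cannot be told apart. The study's methods name 3 biological replicates for each ecotype and treatment. Neither they nor the labels say whether the libraries of a group came from separate plants or pots. The p-values rest on the spread between libraries, estimated over all 12, so each test also carries the spread of groups outside its comparison.

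Under NH4+, 5 of the 10 genes rose in Or-1, 4 rose in Rak-2 and none fell. ALMT1, MATE, PGIP1 and STOP2 rose in both, and ALS1 rose in Or-1. A gene was called where edgeR's quasi-likelihood test gave a Benjamini-Hochberg adjusted p under 0.05 over all genes tested and the absolute log2 fold change was over 1. By that rule 8.86% of all genes were called in Or-1 and 5.26% were called higher, against 5 of the 10 genes, and 6.09% were called in Rak-2 and 2.69% were called higher, against 4 of the 10. The median log2 fold change of the 10 genes was 1.00 for Or-1 and 0.97 for Rak-2, against -0.045 and -0.011 over all genes tested. At an unadjusted p under 0.05, 0 of the 10 genes were lower in Or-1 and 1, STOP1, in Rak-2, and DESeq2 called none lower. The NH4+ and NO3- libraries did not overlap for 6 of the 10 genes in Or-1, where this held for 36.5% of all genes, and for 6 in Rak-2, where it held for 32.1%.

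**Figure D1:**
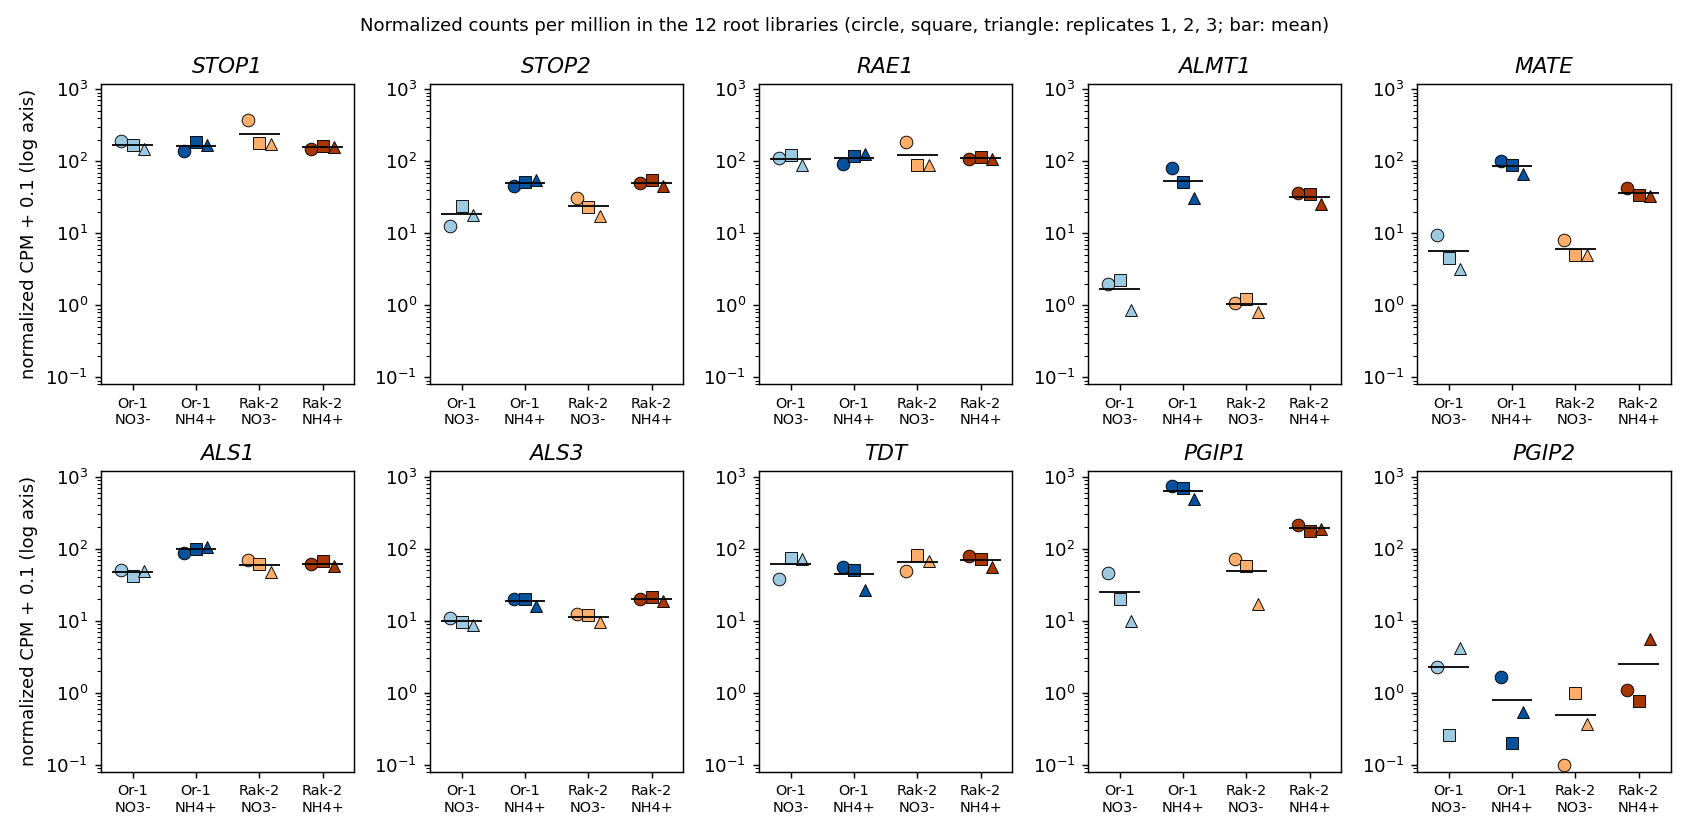
Normalized CPM of the 10 genes in each of the 12 libraries, with 0.1 added and on a logarithmic axis. Circles, squares and triangles are replicates 1, 2 and 3, and bars are group means. ALMT1, MATE, PGIP1 and STOP2 lie higher in every NH4+ library than in any NO3- library of the same ecotype, and the STOP1 and RAE1 values of replicate 1 of Rak-2 under NO3- stand above the other libraries.

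Among the regulators, the STOP1 transcript did not rise under NH4+ in either ecotype. Its level in the order of replicates 1, 2 and 3 was 190, 170 and 149 normalized CPM, that is counts scaled to a common library size, in Or-1 under NO3- and 139, 187 and 168 CPM under NH4+. In Rak-2 it was 370, 180 and 173 CPM under NO3- and 146, 166 and 156 CPM under NH4+. The Or-1 groups overlapped, and the Rak-2 NH4+ libraries lay below the NO3- libraries, of which replicate 1 was far above the others. The STOP1 log2 fold change was -0.040 (SE 0.25) in Or-1 and -0.63 (SE 0.25) in Rak-2, with adjusted p-values of 0.945 and 0.133 in edgeR's quasi-likelihood test. Without replicate 1 of Rak-2 under NO3- the Rak-2 value of STOP1 was -0.16. That library also had a low sum of shoot transcripts, at 4.97 FPKM, the lowest total of counts, at 16005610, and the fewest genes with a count, at 20451. Replicate 2 of Or-1 under NH4+ had a lower shoot sum, at 1.84 FPKM, and 187 CPM of STOP1. The part of these traits in the STOP1 level was not tested.

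RAE1, the F-box subunit that targets the STOP1 protein, was not called in any comparison. Its level was 111, 123 and 88.0 CPM in Or-1 under NO3- and 91.0, 117 and 127 CPM under NH4+. Rak-2 had 187, 90.1 and 88.0 CPM of RAE1 under NO3- and 106, 117 and 107 CPM under NH4+. The groups overlapped in both ecotypes, and replicate 1 of Rak-2 under NO3- was again the highest of the 12 libraries. RAE1 had a log2 fold change of 0.057 (SE 0.26) in Or-1 and -0.15 (SE 0.26) in Rak-2.

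STOP2, a homologue of STOP1 whose transcript is known to depend on STOP1, rose in both ecotypes. It was at 12.7, 24.0 and 17.9 CPM in Or-1 under NO3- and at 45.3, 52.2 and 54.5 CPM under NH4+. In Rak-2 it was at 30.4, 23.0 and 17.3 CPM under NO3- and at 49.5, 55.0 and 45.8 CPM under NH4+. Each NH4+ library was above each NO3- library. For STOP2 the log2 fold change was 1.48 (SE 0.23, adjusted p = 0.00156 in edgeR's quasi-likelihood test) in Or-1 and 1.09 (SE 0.23, adjusted p = 0.0131) in Rak-2. Its Rak-2 value lay close to the threshold on the fold change and was 0.91 without replicate 3 of Rak-2 under NO3-. Over aligned bases the longest transcripts of STOP1 and STOP2 were 64.9% identical, and their longest shared run was 12 bases.

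ALMT1 showed the highest fold change of the 10 genes. The malate channel had a low level under NO3-, at 1.87, 2.18 and 0.750 CPM in Or-1 and 0.977, 1.13 and 0.711 CPM in Rak-2. Under NH4+ it was at 79.9, 51.6 and 30.6 CPM in Or-1 and at 35.7, 34.9 and 25.3 CPM in Rak-2. These levels rest on 13 to 41 counts per library under NO3- and on 516 to 1644 counts under NH4+. The lowest NH4+ library, replicate 3 of Rak-2, was far above the highest NO3- library, replicate 2 of Or-1. Its log2 fold change was 5.09 (SE 0.40, adjusted p = 2.74e-05 in edgeR's quasi-likelihood test) in Or-1 and 5.08 (SE 0.44, adjusted p = 9.3e-05) in Rak-2, or 34.1-fold and 33.7-fold.

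The citrate transporter MATE rose in both ecotypes and reached a higher level in Or-1. It was at 9.37, 4.52 and 3.13 CPM in Or-1 under NO3- and at 100, 89.5 and 66.9 CPM under NH4+. Rak-2 had 8.09, 4.84 and 4.87 CPM of MATE under NO3- and 41.9, 34.3 and 32.8 CPM under NH4+. The NO3- levels of the ecotypes overlapped, and each Or-1 library under NH4+ was above each Rak-2 library under NH4+. For MATE the log2 fold change was 3.92 (SE 0.34, adjusted p = 5.98e-05 in edgeR's quasi-likelihood test) in Or-1 and 2.62 (SE 0.34, adjusted p = 0.00113) in Rak-2.

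Of the internal transporters, ALS1 rose in Or-1 and stayed within its NO3- range in Rak-2. ALS1, an ABC transporter of the tonoplast, was at 49.9, 42.4 and 48.7 CPM in Or-1 under NO3- and at 87.8, 100 and 106 CPM under NH4+. In Rak-2 it was at 70.3, 61.9 and 47.5 CPM under NO3- and at 61.3, 67.9 and 57.2 CPM under NH4+. The Or-1 groups were apart and all 3 Rak-2 values under NH4+ lay between the lowest and highest NO3- values. The log2 fold change of ALS1 was 1.06 (SE 0.14, adjusted p = 0.000623 in edgeR's quasi-likelihood test) in Or-1 and 0.053 (SE 0.14, adjusted p = 0.85) in Rak-2. The Or-1 value was just over the threshold on the fold change and was 0.99 without replicate 2 of Or-1 under NO3-.

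ALS3, a transporter that moves aluminium away from sensitive tissues, had higher levels under NH4+ in both ecotypes, by less than the threshold on the fold change. It was at 11.0, 9.46 and 8.65 CPM in Or-1 under NO3- and at 19.7, 20.1 and 15.8 CPM under NH4+. Rak-2 had 12.2, 11.8 and 9.62 CPM of ALS3 under NO3- and 20.2, 21.6 and 18.9 CPM under NH4+. The NH4+ libraries were above the NO3- libraries in both ecotypes. The log2 fold change of ALS3 was 0.94 (SE 0.15, adjusted p = 0.00163 in edgeR's quasi-likelihood test) in Or-1 and 0.85 (SE 0.15, adjusted p = 0.00491) in Rak-2, so ALS3 passed the threshold on p and not that on the fold change. With the threshold on p alone, 6 of the 10 genes passed in Or-1, against 15.9% of all genes, and 5 in Rak-2, against 11.9%.

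TDT, which loads malate into the vacuole, was not called in any comparison. Its level was 38.1, 75.3 and 71.6 CPM in Or-1 under NO3- and 55.2, 50.1 and 27.0 CPM under NH4+. Rak-2 had 48.7, 82.3 and 67.2 CPM of TDT under NO3- and 80.1, 72.0 and 56.0 CPM under NH4+. The groups overlapped within each ecotype, and the log2 fold change of TDT was -0.48 (SE 0.31) in Or-1 and 0.070 (SE 0.31) in Rak-2.

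The inhibitors of pectin degradation, PGIP1 and PGIP2, are neighbours on chromosome 5 with 330 bases between them, and their values differed widely. PGIP1 was at 46.0, 19.8 and 9.88 CPM in Or-1 under NO3- and at 735, 689 and 490 CPM under NH4+. In Rak-2 it was at 73.1, 56.6 and 16.8 CPM under NO3- and at 213, 176 and 188 CPM under NH4+. The groups were apart in both ecotypes, the NO3- values spread widely, and the Or-1 libraries under NH4+ were the highest of all 12. Fitted log2 fold changes of PGIP1 were 4.66 (SE 0.53, adjusted p = 0.000479 in edgeR's quasi-likelihood test) in Or-1 and 1.98 (SE 0.53, adjusted p = 0.0401) in Rak-2. The Rak-2 call was made in 4 of the 12 fits that left out 1 library, with log2 fold changes of PGIP1 between 1.57 and 2.40. It was lost in the fit of the Rak-2 libraries alone.

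PGIP2 had few reads and was not called in any comparison. It was at 2.15, 0.159 and 4.15 CPM in Or-1 under NO3- and at 1.56, 0.103 and 0.438 CPM under NH4+. In Rak-2 it had no count in replicate 1 under NO3- and 0.892 and 0.273 CPM in the others, against 1.00, 0.680 and 5.54 CPM under NH4+. These values rest on 0 to 113 counts per library, and all groups overlapped. Fitted log2 fold changes of PGIP2 were -1.62 (SE 1.2) in Or-1 and 2.52 (SE 1.3) in Rak-2. Its level went with that of the shoot transcripts: the 3 libraries with the most PGIP2 were the 3 with the highest sum of CAB1, CAB2 and RBCS1A, and the 2 libraries with the least PGIP2 were the 2 with the lowest sum. Over the 12 libraries Spearman's rho between PGIP2 and that sum was 0.80 and Pearson's r of the log2 values was 0.69, while for ALMT1 they were -0.21 and -0.045. Other genes went the opposite way to the shoot transcripts, with a rho of -0.48 and an r of -0.66 for STOP1, of -0.46 and -0.56 for RAE1 and of -0.48 and -0.48 for ALS1. Whether shoot tissue in the samples has a part in the PGIP2 level was not tested. The longest transcripts of PGIP1 and PGIP2 were 81.9% identical over aligned bases with a longest shared run of 26 bases, and the deposited length of PGIP1, 1449 bases, exceeded the annotated 1169. How reads in both genes were assigned is not given in the sources used here.

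**Figure D2:**
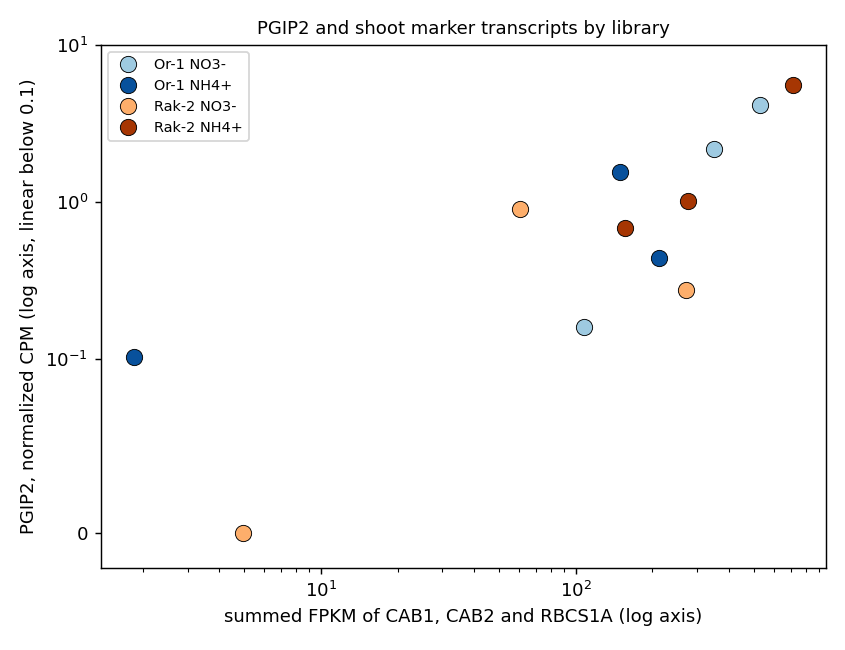
Level of PGIP2 in normalized CPM against the summed FPKM of CAB1, CAB2 and RBCS1A in each of the 12 libraries, coloured by group, on logarithmic axes (linear below 0.1 for PGIP2). The library with the highest value on both axes is replicate 3 of Rak-2 under NH4+, with 5.54 CPM and 710 FPKM, and libraries of each group are spread along both axes.

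**Figure D3:**
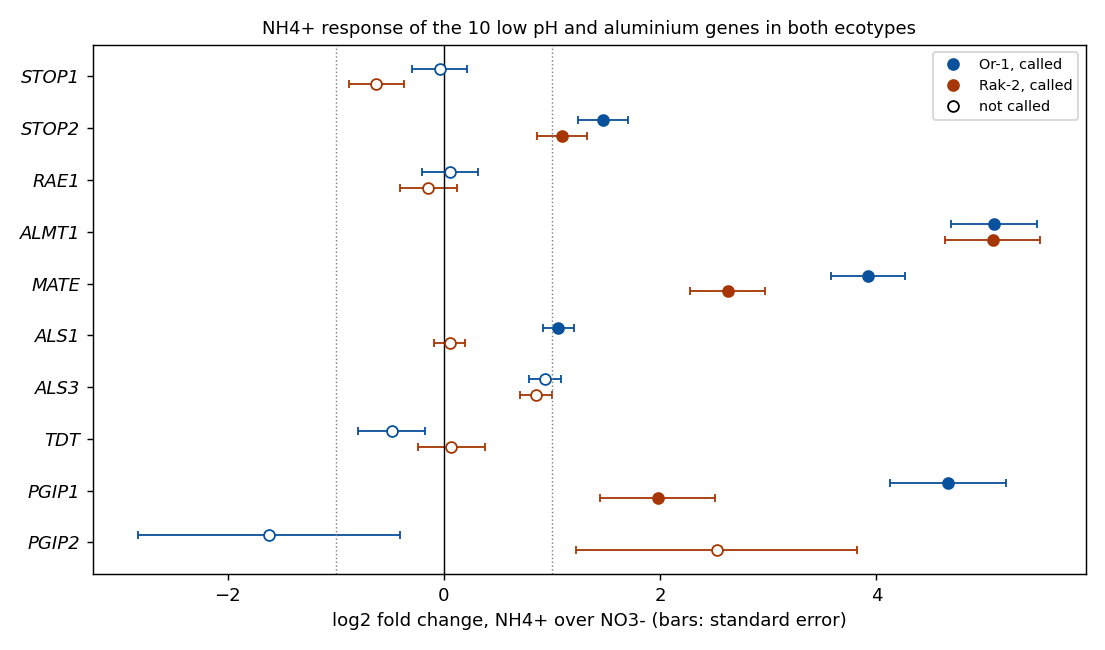
Log2 fold change of NH4+ over NO3- for the 10 genes in Or-1 and Rak-2, with standard errors. Filled points were called, and dotted lines mark log2 fold changes of -1 and 1. ALMT1 lies at 5.09 and 5.08, whereas PGIP1 lies at 4.66 for Or-1 and at 1.98 for Rak-2.

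To compare the ecotypes, the levels of Or-1 and Rak-2 were tested under each nitrogen source. Under NH4+, MATE and PGIP1 were called higher in Or-1, with log2 differences of 1.23 (SE 0.33, adjusted p = 0.0204 in edgeR's quasi-likelihood test) and 1.73 (SE 0.53, adjusted p = 0.041). ALS1 was higher by 0.66 (SE 0.14, adjusted p = 0.00753), under the threshold on the fold change. ALMT1 differed by 0.76 (SE 0.35, adjusted p = 0.141), and its groups overlapped, with replicate 3 of Or-1 below replicates 1 and 2 of Rak-2. Within each replicate number ALMT1 was higher in Or-1. With a replicate block in edgeR's test its log2 difference was 0.67 (adjusted p = 0.0284), under the threshold on the fold change. What libraries with equal replicate numbers share is not given, and the study's methods name no such block. TDT had a log2 difference of -0.65 (SE 0.31, adjusted p = 0.156), and its Or-1 libraries were all below those of Rak-2. The counts were 2 of 10 genes called, against 12.2% of all genes, and 4 of 10 genes whose groups did not overlap, against 48.8%. MATE was called in 8 and PGIP1 in 4 of the 12 fits that left out 1 library, and neither was called without replicate 1 or 2 of Or-1 under NH4+ or without replicate 2 or 3 of Rak-2 under NH4+. ALMT1 was called in 1 of these 12 fits, with a log2 difference of 1.04 without replicate 3 of Or-1 under NH4+.

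Under NO3-, none of the 10 genes was called between the ecotypes, against 8.64% of all genes, and none had groups that did not overlap, against 26.2%. Log2 differences of Or-1 over Rak-2 lay between -0.96 for PGIP1 (SE 0.54) and 2.37 for PGIP2 (SE 1.3), and the adjusted p in edgeR's quasi-likelihood test was 0.155 or above. At an unadjusted p under 0.05 the count was 1 (ALS1), and DESeq2 called none.

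Whether the response to NH4+ differed by ecotype was tested as an interaction, and 1 of the 10 genes was called, against 1.23% of all genes. ALS1 rose more in Or-1 than in Rak-2, by 1.01 on the log2 scale (SE 0.20, 95% confidence interval 0.56 to 1.46, adjusted p = 0.0381 in edgeR's quasi-likelihood test). The difference for PGIP1 was 2.69 (SE 0.75, interval 1.03 to 4.34, adjusted p = 0.108) and that for MATE was 1.30 (SE 0.48, interval 0.23 to 2.36, adjusted p = 0.196). For ALMT1 the difference was 0.016 with an interval of -1.29 to 1.32, which leaves room for a response that differs by more than a doubling either way. ALS3 had a narrower interval of -0.38 to 0.55 around 0.084. The ALS1 call lies at the threshold, and it was made in 2 of the 12 fits that left out 1 library, with differences between 0.86 and 1.15. The difference for PGIP1 was also called in 2 of these 12 fits, and that for MATE in 1.

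**Figure D4:**
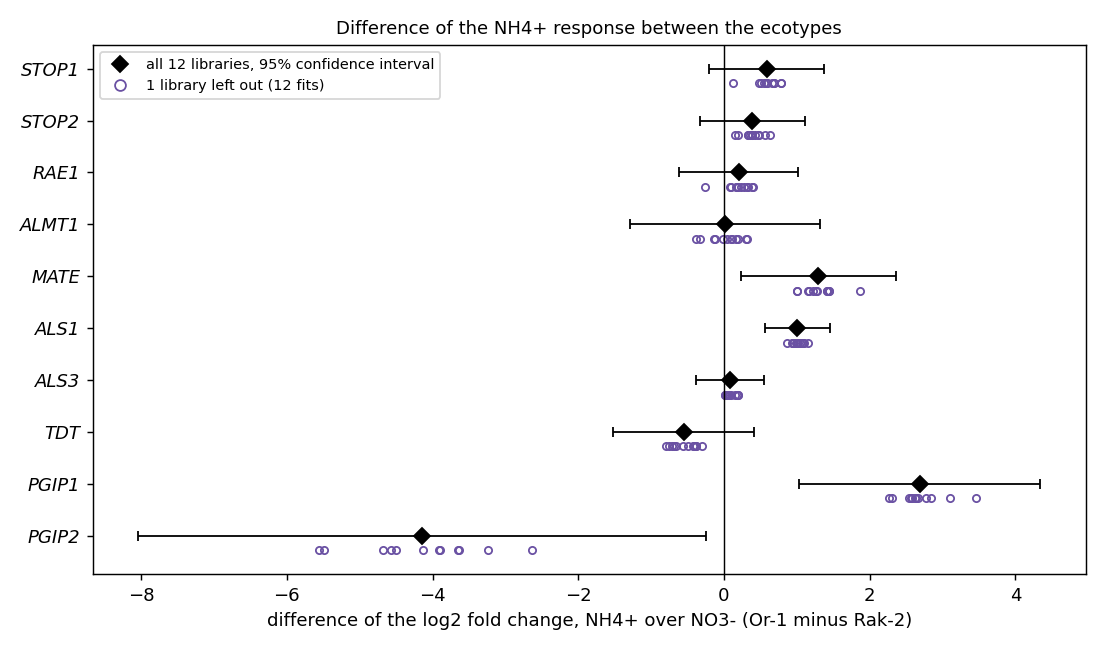
Ecotype difference in the response to NH4+ for the 10 genes, given as the log2 fold change in Or-1 minus that in Rak-2. Diamonds with bars are the value and its 95% confidence interval over 12 libraries, and circles are the values with 1 library left out. ALS1 has the interval 0.56 to 1.46, while that of ALMT1 runs from -1.29 to 1.32.

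Levels were ordered per length, as FPKM with the deposited lengths. These exceeded the annotated length for PGIP1 (1449 against 1169 bases) and for ALS3 (1041 against 896 bases). Under NO3- the STOP1 transcript was the highest of the 10 in both ecotypes, with means of 88.3 FPKM in Or-1 and 126 FPKM in Rak-2. Under NH4+ PGIP1 was first, with 440 FPKM in Or-1 and 133 FPKM in Rak-2, and STOP1 second, with 85.9 and 81.3 FPKM. ALMT1 had the last place in Or-1 under NO3-, with a mean of 0.817 FPKM, and the seventh under NH4+, with 27.6 FPKM. Several neighbours in Or-1 under NH4+ did not differ beyond their spread: ALS1 (36.2 to 43.6 FPKM) and RAE1 (29.4 to 41.0) overlapped, as did MATE (25.6 to 38.3), STOP2 (28.7 to 34.5) and ALMT1 (15.6 to 40.8). PGIP1 (338 to 507 FPKM) and STOP1 (72.6 to 97.5) were each apart from their neighbours there. In Rak-2 under NH4+ PGIP1 (121 to 147 FPKM) and STOP1 (76.2 to 86.4) were apart from each other and from RAE1 (34.3 to 37.7). PGIP2 was the lowest there, with 0.582 to 4.74 FPKM.

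Over the 12 libraries, the log2 CPM of ALMT1 was close in pattern to that of several other genes, which for genes that rose in both ecotypes follows from the rise itself. Pearson's r was 0.96 between ALMT1 and MATE, 0.93 between ALMT1 and ALS3, 0.91 between ALMT1 and PGIP1, 0.88 between ALMT1 and STOP2 and 0.69 between ALMT1 and ALS1. STOP1 had an r of -0.42 with ALMT1 and 0.80 with RAE1. Without replicate 1 of Rak-2 under NO3-, chosen after seeing the data, these were -0.34 and 0.34, so the likeness of STOP1 and RAE1 rested on that library. The libraries fall into 4 groups and share their scaling, so these values describe the groups as much as the libraries within them. Outside the 10 genes, the transcripts most like ALMT1 were EXLB1 (AT4G17030), an expansin-like gene, with an r of 0.99, and AT2G16760, AT3G22240, AT1G73810 and AT1G76350, each with 0.98. Those most like STOP1 were AT1G20270 (r = 0.96), AT5G18490 (0.95), the nitrate response regulator NLP7 (AT4G24020, 0.94), AT4G00755 (0.94) and MYBC1 (AT2G40970, 0.94). Without the same library, r lay between 0.63 and 0.79 for these 5 genes and was 0.98 or 0.99 for the 5 genes like ALMT1. EXLB1 had group means of 31.8 CPM in Or-1 and 25.4 CPM in Rak-2 under NO3-, and of 133 and 94.4 CPM under NH4+. AT1G20270 had 25.6 CPM in Or-1 and 47.0 CPM in Rak-2 under NO3-, and 27.3 and 25.6 CPM under NH4+.

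The pathway's other genes were read from 5 lists with 42 genes, of which 34 were tested. In Or-1 6 of the 34 rose and 1 fell, and in Rak-2 1 rose and 2 fell, with median log2 fold changes of 0.093 and 0.15. Over all genes 5.26% rose and 3.6% fell in Or-1, and 2.69% rose and 3.4% fell in Rak-2, so the Rak-2 counts are near the background. Of the 11 regulators of STOP1 or ALMT1, 1 rose in Or-1 and none was called in Rak-2. At an unadjusted p under 0.05 in edgeR's test, 3 were higher and 1 was lower in Or-1, and 2 were higher and 1 was lower in Rak-2. The gene called was CAMTA2, an activator of ALMT1, at 38.4, 49.3 and 37.6 CPM under NO3- and 92.6, 90.2 and 79.9 CPM under NH4+ in Or-1. Its log2 fold change was 1.07 (SE 0.12, adjusted p = 0.000185 in edgeR's quasi-likelihood test) in Or-1 and 0.28 (SE 0.12, adjusted p = 0.149) in Rak-2, and the adjusted p of the difference was 0.0501. WRKY46, a repressor of ALMT1, had log2 fold changes of 0.91 (SE 0.51) and 0.46 (SE 0.52) and was not called. For 2 further regulators the Or-1 response passed the threshold on p and not that on the fold change. RAH1 had -0.60 (SE 0.16, adjusted p = 0.0244 in edgeR's quasi-likelihood test) and MKK2 had 0.62 (SE 0.14, adjusted p = 0.0097). Their Rak-2 values were -0.18 (SE 0.16) and 0.14 (SE 0.14).

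Of the 6 other genes known to depend on STOP1, 3 rose and 1 fell in Or-1, and 2 fell in Rak-2. GDH1 and GDH2, glutamate dehydrogenases, had log2 fold changes of 1.27 (SE 0.20) and 1.70 (SE 0.16) in Or-1, both called, and of 0.46 (SE 0.20) and 0.42 (SE 0.16) in Rak-2, neither called. GDH2 was at 143, 153 and 121 CPM under NO3- and 457, 513 and 383 CPM under NH4+ in Or-1, and at 174, 194 and 146 CPM and 265, 198 and 226 CPM in Rak-2. Its response differed between the ecotypes by 1.27 (SE 0.23, adjusted p = 0.0257 in edgeR's quasi-likelihood test). HAK5, a high-affinity potassium transporter, rose in Or-1 by 3.71 (SE 0.61) and had 2.08 (SE 0.61, adjusted p = 0.0557) in Rak-2. SULTR3;5, a sulfate transporter, fell in both, with log2 fold changes of -1.60 (SE 0.46) and -3.21 (SE 0.46). The NH4+ salt also supplied sulfate, and the part of this in the SULTR3;5 values was not tested. The nitrate transporter NRT1.1 fell in Rak-2, with -1.16 (SE 0.31), and had -0.79 (SE 0.31) in Or-1.

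Of the relatives of the exporters, FRD3 was called. ALMT1 has 13 further family members, of which 6 had enough counts to be tested, and none of these was called in either response, with log2 fold changes between -0.61 and 0.98. At an unadjusted p under 0.05, edgeR's test had 2 of them in Or-1, ALMT9 and ALMT10, and 1 in Rak-2, ALMT12. ALMT2, the neighbour of ALMT1 whose longest transcript was 83.8% identical to that of ALMT1, was not among the genes tested. Of the 3 relatives of MATE, FRD3, which exports citrate into the xylem, rose in both ecotypes, by 1.73 (SE 0.30) in Or-1 and 1.25 (SE 0.30) in Rak-2. Among the 8 other aluminium-related genes tested, LPR1, a ferroxidase that acts with ALMT1 under low phosphate, rose in Or-1 by 1.87 (SE 0.30, adjusted p = 0.00171 in edgeR's quasi-likelihood test) and had 0.84 (SE 0.29, adjusted p = 0.0889) in Rak-2. STAR1, the partner of ALS3, had -0.29 (SE 0.13) and -0.19 (SE 0.13) and was not called.

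**Figure D5:**
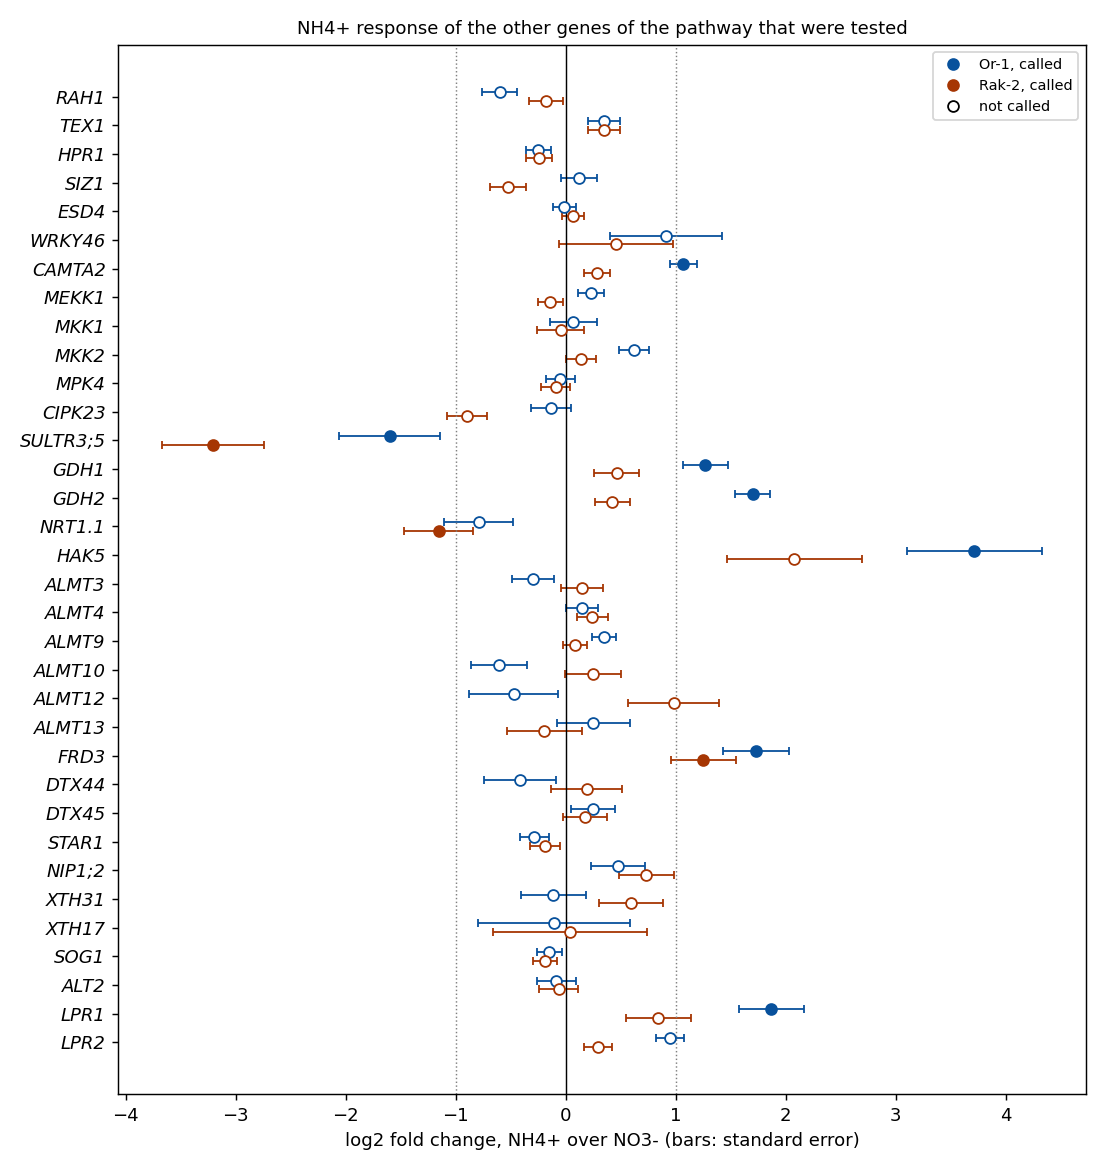
Log2 fold change of NH4+ over NO3- with standard errors for the 34 other genes of the pathway that were tested, in Or-1 and Rak-2. Filled points were called, and dotted lines mark log2 fold changes of -1 and 1. HAK5 at 3.71 in Or-1 and SULTR3;5 at -3.21 in Rak-2 lie farthest from 0.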

How the data were processed

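Total RNA of roots was sequenced in 12 libraries, 3 for each ecotype and nitrogen source made with the NEBNext Ultra kit. The authors deposited a table of raw counts per gene without normalization. The aligner, counter, genome build and strand setting are not given in the sources used here, so overlapping and antisense genes cannot be told apart. The 3 deposited tables of differentially expressed genes hold expression values, log2 ratios, p-values and FDR of the authors' own comparisons and were not used. Of 25670 genes shared with RefSeq's TAIR10.1 annotation, 20907 had a deposited length equal to that of an annotated transcript, and this annotation gave the positions. The names MATE and RAE1 come with the gene list.

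The 10 genes and the other lists were chosen with earlier results of these data known. Named are all 10 genes, listed genes called in a response or in its difference, and the 5 genes most correlated with ALMT1 and with STOP1. WRKY46, RAH1, MKK2, STAR1, ALMT2, ALMT9, ALMT10 and ALMT12 were named after their values were seen.

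Counts were analysed in R 4.3.3 with edgeR 4.0.16 (filterByExpr with a minimum count of 10 and total of 15, TMM scaling, glmQLFit and glmQLFTest with 1 coefficient per group), and DESeq2 1.42.0 as an alternative. CPM and FPKM were computed from the counts and deposited lengths with TMM library sizes, and log2 CPM for correlations had a prior count of 2. Windows of 250 bases and alignments were read with Python 3.11.15 and Biopython 1.88. The test was run on simulated data for the Or-1 response alone, with 200 changed genes and the same spread in all groups. It does not cover the other comparisons or the unequal spread of the real groups. Libraries with the same replicate number deviated together in the Or-1 response (correlations 0.296 to 0.445) and between ecotypes under NH4+ (0.216 to 0.336), but not in each pair of the other comparisons. Alternatives were other scalings, tests, filters and thresholds, a replicate block, and leaving out each library.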

Additional observations from a re-analysis of the deposited data

Results flagged for a closer look

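The NH4+ response of ALS1 differed between the ecotypes by a test of the difference itself, by 1.01 on the log2 scale. The call was made in 2 of the 12 fits that left out 1 library and in 5 of 8 other alternatives. Under NH4+ all 3 Or-1 libraries were at 87.8 CPM or above and all 3 Rak-2 libraries at 67.9 CPM or below. The ecotypes did not overlap under NH4+ for 48.8% of all genes. Under NO3- the log2 difference of Or-1 over Rak-2 was -0.35 and was not called. No explanation of the difference in the response was tested.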

How the results depend on the processing

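The number of genes called among the 10 was 5 in the Or-1 response and 3 under glmTreat, which tests against the fold threshold itself, with 4 to 6 when 1 library was left out. In the Rak-2 response it was 4, with 2 under glmTreat and 2 to 4 with 1 library left out: STOP2 and PGIP1 were lost without replicate 3 of Rak-2 under NO3- and without replicate 2 of Rak-2 under NH4+. Between the ecotypes under NH4+ it was 2, with 0 under glmTreat and 0 to 2 with 1 library left out. For the difference of the response it was 1, with 2 under DESeq2 (ALS1 and PGIP1), 0 under upper-quartile scaling, under library size alone and under glmTreat, and 0 to 2 with 1 library left out. With the replicate block it was 3 (ALS1, MATE and PGIP1), and the replicate block changed no other count. The causes of these changes were not tested.

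Of 1040 values of single genes under alternatives, 946 kept their direction and their side of the threshold, 43 lost a call, 12 gained one and 39 changed sign, none of them called. Changes of sign with another scaling were, for RAE1, 0.0099 with library size alone in the Rak-2 response and -0.066 with upper-quartile scaling and -0.061 with library size alone between ecotypes under NH4+. In that comparison STOP1 had -0.0089 and -0.0058, and STOP2 had -0.070 and -0.065. For the difference of the response ALMT1 had -0.090, -0.11 and, with the replicate block, -0.030, and ALS3 had -0.031 and -0.054. With 1 library left out the log2 fold changes that changed sign ranged, in the Or-1 response, from -0.14 to 0.073 for STOP1 and from -0.045 to 0.18 for RAE1. In the Rak-2 response the ranges were -0.090 to 0.20 for ALS1, -0.095 to 0.26 for TDT and -0.33 to 0.32 for RAE1. Between ecotypes under NH4+ they were -0.022 to 0.19 for STOP1, -0.045 to 0.11 for STOP2 and -0.079 to 0.15 for RAE1. Under NO3- they were -0.61 to 0.24 for MATE, -0.28 to 0.17 for TDT and -0.37 to 0.27 for RAE1. For the difference of the response they were -0.38 to 0.31 for ALMT1 and -0.26 to 0.40 for RAE1. Counts of 0 to 113 limit PGIP2, and counts of 13 to 41 limit ALMT1 under NO3-.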

Other observations

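Within Or-1 under NH4+, ALMT1, MATE, PGIP1 and TDT had their highest level in replicate 1 and their lowest in replicate 3, with 79.9 and 30.6 CPM for ALMT1 and 735 and 490 CPM for PGIP1. STOP2, ALS1 and RAE1 had their lowest level in replicate 1 and their highest in replicate 3 of the same group, with 87.8 and 106 CPM for ALS1 and 91.0 and 127 CPM for RAE1. HAK5 and FRD3 had the first of these patterns, with 548 and 251 CPM for HAK5. That first pattern was not particular to this group. ALMT1, MATE and TDT, but not PGIP1, also had it in Rak-2 under NH4+. MATE and PGIP1, but not ALMT1 or TDT, had it in Or-1 under NO3-. In Rak-2 under NO3- it held for PGIP1, STOP2, ALS1 and RAE1, but not for ALMT1, MATE or TDT. These values were noticed after the data had been seen and are given as a description.

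Between the ecotypes, 3 of the 34 other genes tested were called under NH4+, against 12.2% of all genes, so the count is no result about the lists. They were noticed after the data had been seen. SIZ1, a SUMO ligase that acts on STOP1, was higher in Or-1 by 1.35 (SE 0.16, adjusted p = 0.00019 in edgeR's quasi-likelihood test). LPR2, an oxidase related to LPR1, was higher by 1.07 (SE 0.12, adjusted p = 0.000132). Under NO3- neither was called. SIZ1 was then at 222 to 295 CPM in Or-1 and 134 to 195 CPM in Rak-2. LPR2 was at 40.5 to 51.3 CPM in Or-1 and 30.0 to 38.3 CPM in Rak-2. The ecotypes did not overlap under NO3- for 26.2% of all genes. XTH31, a xyloglucan-modifying enzyme of the cell wall linked to aluminium binding, had a log2 difference of -2.07 (SE 0.29, adjusted p = 0.000626) under NH4+ and of -1.37 (SE 0.29, adjusted p = 0.00968) under NO3-.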
